A study of Homo sapiens with 6 samples.

Results

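Genes that the hypoxia-inducible factors (HIF) are known to induce, other than glycolytic enzymes and glucose or lactate transporters, were followed in NCI-N87 cells with and without added EGLN3. The 37 genes were taken from general knowledge of HIF targets and found by symbol, and each matched 1 row of the 58735 genes in the deposited table. Of the 37, 36 had enough counts to be tested, and CA9 did not. RNA was sequenced from 6 libraries of NCI-N87, an established human gastric cancer cell line: 3 libraries of cells that had received the plasmid PLVX-IRES-Puro carrying EGLN3, and 3 control libraries of cells with the same plasmid empty. The labels do not name the promoter that drives EGLN3 or say that the cells are 1 clone. By their labels 5 libraries had 1 day of plasmid and EGLN3 replicate 3 had 5 days, although the treatment protocol of that library too gives 24 hours. All were then selected for 7 days in puromycin, which kills cells without the plasmid. The cells grew at 37 °C in a humidified incubator with 5% CO2, and the labels name no low-oxygen treatment. Separate cultures are not named for the replicates, and the p-values here therefore reflect only library-to-library spread, which may be technical. In bulk RNA, fewer expressing cells and less RNA per cell cannot be told apart.

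When oxygen is present, prolyl hydroxylases of the EGLN family mark the HIF alpha subunits, VHL binds the marked protein, and the proteasome removes it. When oxygen falls, the alpha subunits persist, pair with ARNT and bind short DNA motifs near their targets. The targets supply vessels, hold back mitochondrial respiration, cross-link collagen, move acid across the membrane and feed back on HIF itself. EGLN3, also called PHD3, is both a member of that hydroxylase family and a HIF target.

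The core of the HIF binding motif is ACGTG or GCGTG, read on either strand, where CACGT and CACGC are their reverse complements. Promoter windows of 300 bases, from 250 before to 50 after the RefSeq start (GRCh38.p14), were at hand for 31 of the 37 genes. For members and tested genes only the first listed window per symbol was kept, while the 35116 RefSeq windows were all used. Some kept windows lie inside the gene as the deposited table gives it. That of YEATS2 begins at 183709989, with the gene start at 183697818. That of RORA, on the minus strand, ends at 60627780, with the gene end at 61229319. That of P4HA2, also on the minus strand, ends at 132227341, with the gene end at 132295315. The windows of YEATS2, RORA and P4HA2 held 0 matches. Of the windows printed below, those of ANKRD37, BHLHE40 and KCTD11 also lie inside the gene. They begin at 185396591, 4979187 and 7351912, with gene starts at 185396021, 4979116 and 7351889. The windows of 24 of the 31 (77.4%) held at least 1 of these motifs, against 62.6% of 10613 windows of tested genes and 48.4% of 35116 RefSeq windows. ACGTG was in 16 of 31 (51.6%), against 26.6% of tested genes, and GCGTG in 15 of 31 (48.4%), against 50.1%. Windows that held both motifs count in both shares. The windows of 6 genes are printed 5′ to 3′ on the gene's strand, with motif matches in capitals, because these genes carry the results below: the most abundant gene (BHLHE40), the gene with a single count (CA9), the genes whose 2 groups did not overlap (ANKRD37, KCTD11 and MXI1) and the gene with the highest log2 fold change (BNIP3). Adjoining matches on the 2 strands share letters, as in CACGTG. A match is a description of letters and not a binding site.

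BHLHE40, chr3:4979187-4979486, plus strand: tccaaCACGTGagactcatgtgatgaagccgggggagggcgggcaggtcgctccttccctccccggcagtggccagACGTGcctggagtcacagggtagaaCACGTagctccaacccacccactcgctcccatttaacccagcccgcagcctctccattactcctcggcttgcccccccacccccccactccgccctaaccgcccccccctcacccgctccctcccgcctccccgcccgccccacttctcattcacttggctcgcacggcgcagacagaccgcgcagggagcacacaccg
CA9, chr9:35673678-35673977, plus strand: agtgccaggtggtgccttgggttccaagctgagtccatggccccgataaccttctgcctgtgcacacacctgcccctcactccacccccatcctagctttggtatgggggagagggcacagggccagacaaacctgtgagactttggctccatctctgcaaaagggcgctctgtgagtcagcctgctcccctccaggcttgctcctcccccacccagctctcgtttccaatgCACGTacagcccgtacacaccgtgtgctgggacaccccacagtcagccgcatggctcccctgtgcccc
ANKRD37, chr4:185396591-185396890, plus strand: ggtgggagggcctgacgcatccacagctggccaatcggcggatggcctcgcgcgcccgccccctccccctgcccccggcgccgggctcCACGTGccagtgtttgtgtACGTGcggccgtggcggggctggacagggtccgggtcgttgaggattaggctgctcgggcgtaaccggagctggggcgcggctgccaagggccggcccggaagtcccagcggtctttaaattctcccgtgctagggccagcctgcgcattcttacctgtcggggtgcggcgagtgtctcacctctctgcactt
KCTD11, chr17:7351912-7352211, plus strand: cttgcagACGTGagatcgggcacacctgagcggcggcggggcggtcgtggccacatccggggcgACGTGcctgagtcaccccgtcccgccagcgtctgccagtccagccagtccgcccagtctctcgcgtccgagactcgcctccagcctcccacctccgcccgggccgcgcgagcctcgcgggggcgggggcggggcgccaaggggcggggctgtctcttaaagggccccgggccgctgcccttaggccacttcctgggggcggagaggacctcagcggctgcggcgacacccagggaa
MXI1, chr10:110207355-110207654, plus strand: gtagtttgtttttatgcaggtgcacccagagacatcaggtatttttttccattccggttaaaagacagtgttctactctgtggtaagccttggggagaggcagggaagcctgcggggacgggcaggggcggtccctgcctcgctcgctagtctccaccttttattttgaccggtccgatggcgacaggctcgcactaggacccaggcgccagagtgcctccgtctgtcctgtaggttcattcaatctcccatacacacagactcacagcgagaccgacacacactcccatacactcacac
BNIP3, chr10:131981874-131982173, minus strand: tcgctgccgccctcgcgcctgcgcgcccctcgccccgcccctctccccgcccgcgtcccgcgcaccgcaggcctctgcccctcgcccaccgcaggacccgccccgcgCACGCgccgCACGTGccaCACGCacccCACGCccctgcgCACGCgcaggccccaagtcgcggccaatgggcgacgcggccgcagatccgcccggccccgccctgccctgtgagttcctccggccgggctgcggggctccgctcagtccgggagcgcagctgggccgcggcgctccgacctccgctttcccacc

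The BHLHE40 window held 4 matches, ANKRD37 held 3 and KCTD11 held 2, each of the form ACGTG. The CA9 window held 1, on the opposite strand, starting 18 bases before the RefSeq start. The deposited table places the start of CA9 upstream of that RefSeq start. BNIP3 held 6 matches, with first bases between 143 and 104 bases before its RefSeq start. MXI1 held 0 in this window.

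EGLN3 itself was higher in each library that carried it. In replicate order, the control libraries held 10, 11 and 9 reads of EGLN3 and the plasmid libraries 7298, 27674 and 27494. This was a log2 difference of 11 (SE 0.72) with an adjusted p of 0.031 by the edgeR quasi-likelihood test. Library totals ran from 15157265 to 16767383 counts. Epithelial markers (EPCAM, CDH1, KRT8, KRT18, KRT19) were high in every library, with a summed level of 27822 to 37514 CPM (counts scaled to library size, after TMM) in controls and 23795 to 44549 CPM with EGLN3. Markers of fibroblasts, leukocytes and endothelium each summed to at most 6.77 CPM, and COL1A2 and LUM were at 0 in all libraries. The libraries also differed in a way that does not follow the plasmid. The leading principal component, with 70.0% of the variance, ran from EGLN3 replicate 3 and control replicate 1 at one end to EGLN3 replicate 1 and control replicate 3 at the other. On the second component the groups did not overlap. The controls lay at -11.3, -20.8 and -11.1 and the EGLN3 libraries at 19.2, 7.81 and 16.2, in replicate order. That separation was not tested.

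None of the 36 tested HIF targets changed with EGLN3 past the threshold, in either direction. The edgeR quasi-likelihood test called 0 of 36 at an adjusted p under 0.05, beside 1 of 15726 genes in all (0.00636%), which was EGLN3. At an unadjusted p under 0.05 it had 1 of 36, ANKRD37, beside 1.11% of all genes. DESeq2 also called 0 members, with 0 at an unadjusted p under 0.05 beside 1.04% of all genes. Limma-voom called 0 as well, with 1 at an unadjusted p under 0.05 beside 1.15% of all genes. The targets split into 19 with a positive and 17 with a negative log2 fold change. Their median was 0.03, beside 0.01 over all genes tested. The lowest value was -0.63 (ANKRD37) and the highest 0.35 (BNIP3). The median size of the change was 0.13 on the log2 scale, beside 0.12 over all genes.

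The intervals show what sizes of change these libraries leave possible. The 95% interval of the log2 fold change lay wholly inside a 2-fold change in either direction for 30 of 36 members (83.3%), beside 73.2% of all genes. It lay inside 1.5-fold for 17 of 36 (47.2%), beside 35.1% of all genes. The intervals of ANKRD37, TMEM45A, LOX, LOXL2, RORA and EFNA3 reached beyond 2-fold. These intervals are per gene and take the spread between libraries as edgeR estimates it.

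**Figure D1:**
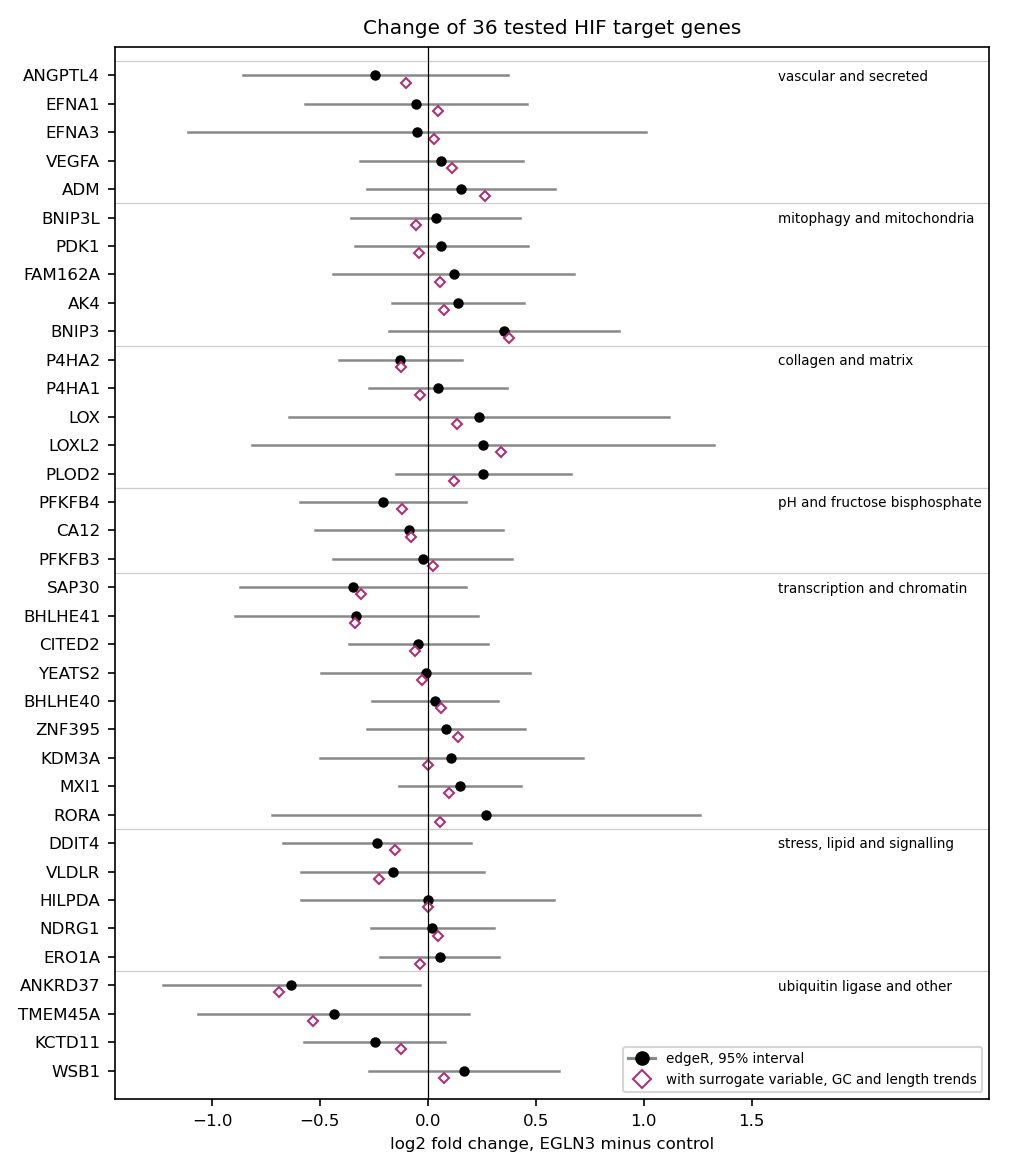
Log2 fold change (EGLN3 minus control, x axis) of the 36 tested HIF targets, grouped by role. Black points and grey bars are edgeR estimates with 95% intervals, and open diamonds are estimates with a surrogate variable and GC and length trends. Every bar but that of ANKRD37 crosses 0.

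Per length of gene, the targets spread over a wide range of levels in culture without a low-oxygen treatment. FPKM are reads scaled by the authors to gene length and to 1 factor per library. Their median was 3.49 over the 36 tested members, against 4.06 over all tested genes. Of the 36, 17 lay above the median of all tested genes. A mean of at least 10 FPKM was reached by 5 members, and 12 of the 37 lay below 1. BHLHE40 led at 40.2 FPKM, above 93.3% of tested genes, followed by ERO1A at 17.4, FAM162A at 12.4, CITED2 at 10.2 and YEATS2 at 10.2. At the other end stood LOXL2 at 0.122 FPKM, LOX at 0.272, TMEM45A at 0.321 and BNIP3 at 0.441. VEGFA lay at 2.94 FPKM and ADM at 1.71, above 42.8% and 31.3% of tested genes.

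**Figure D2:**
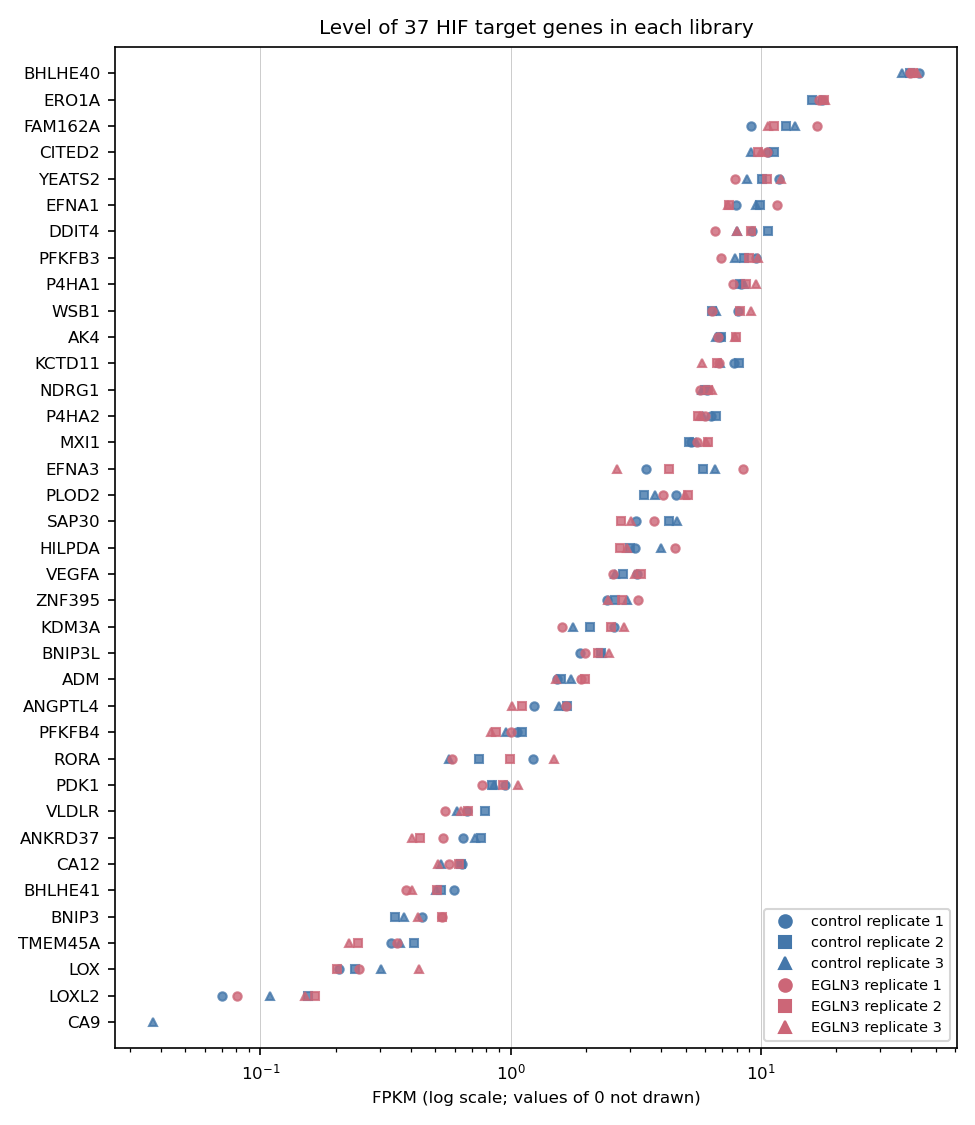
FPKM (x axis, log scale) of the 37 HIF targets in each of the 6 libraries, ordered by mean. Blue symbols are controls and red symbols EGLN3 libraries, with 1 shape per replicate number. BHLHE40 stands highest and CA9 has 1 symbol, from the single count in control replicate 3.

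CA9, a carbonic anhydrase on the cell surface that is widely used as a mark of hypoxic tumour cells, was all but absent. The gene (ENSG00000107159) lies on the plus strand of chromosome 9, from 35673856 to 35681159 in the deposited table. It had 1 count in control replicate 3 and 0 in each of the other 5 libraries, where a count of 0 allows up to 3 counts, or 0.174 to 0.198 CPM. This floor covers counting error only. No fold is given, since both groups are at the floor. Of its exons 38.5% overlap ARHGEF39 on the opposite strand, which had 1763 counts over the 6 libraries.

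Among genes that act on vessels and secreted signals, the groups overlapped for all 5 and 0 were called. VEGFA, the main growth factor of blood vessels, measured 46.8, 40.7 and 38.2 CPM in the controls and 37.0, 48.2 and 46.0 CPM in the EGLN3 libraries, each in replicate order as in all values that follow. Both its highest and its lowest library carried EGLN3, and the means were 41.9 ± 4.43 and 43.7 ± 5.93 CPM (SD, n = 3 each). The log2 fold change of VEGFA was 0.06 (SE 0.16; edgeR adjusted p = 1), and its interval ran from 0.804-fold to 1.36-fold. ADM, the vasodilator adrenomedullin, was at 0.15 (SE 0.18), and ANGPTL4, an inhibitor of lipoprotein lipase, at -0.24 (SE 0.26). EFNA1, a membrane ligand of Eph receptors, measured 20.4, 25.4 and 24.4 CPM in controls and 29.6, 19 and 19.1 CPM with EGLN3. Its EGLN3 replicate 1 was the highest library and the other EGLN3 libraries were the 2 lowest. EFNA3, a related ligand, measured 6.73, 11.3 and 12.6 CPM in controls and 16.2, 8.22 and 5.17 CPM with EGLN3, so its EGLN3 libraries held both extremes and its log2 fold change of -0.05 had an SE of 0.44.

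The 5 genes of mitochondria all had positive log2 fold changes of at most 0.35, and 0 were called. With the surrogate variable and trends described further on, BNIP3L and PDK1 were negative, at -0.055 and -0.043. BNIP3 and BNIP3L are outer membrane receptors that mark mitochondria for autophagy, PDK1 holds back pyruvate dehydrogenase, AK4 is a mitochondrial adenylate kinase and FAM162A is a mitochondrial protein linked to hypoxic cell death. BNIP3 measured 2.38, 1.85 and 2.01 CPM in controls and 2.83, 2.84 and 2.30 CPM with EGLN3. Its groups overlapped by 1 library, EGLN3 replicate 3, which lay below control replicate 1. BNIP3 had a log2 fold change of 0.35 (SE 0.22; edgeR unadjusted p = 0.16, adjusted p = 1). Only 230 reads in all were assigned to BNIP3, while its processed pseudogenes BNIP3P4 and BNIP3P11 had 163 and 135, so the division of reads among these copies is uncertain. FAM162A measured 35.3, 48.4 and 52.5 CPM in controls and 63.6, 43.2 and 41.2 CPM with EGLN3. Here too EGLN3 replicate 1 stood highest, and the log2 fold change was 0.12 (SE 0.23). AK4, PDK1 and BNIP3L were at 0.14 (SE 0.13), 0.06 (SE 0.17) and 0.04 (SE 0.16). AK4 also has processed copies, of which AK4P1 had 422 counts beside 5325 for AK4. The summed level of the 5 genes was 113.1 to 128.1 CPM in controls and 130.3 to 137.8 CPM with EGLN3. Most of it came from AK4, with means of 52.2 CPM in controls and 57.5 CPM with EGLN3, and FAM162A, with 45.4 and 49.3 CPM. Taken singly, each of the 5 genes overlapped between the groups. The same sum overlapped between the groups for every other role. For the collagen enzymes it was 108.7 to 117.9 CPM in controls and 107.8 to 121.2 CPM with EGLN3. These sums were not tested, since the genes were grouped with results known. How often sums of other gene groups separate was not counted.

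The groups also overlapped for all 5 collagen-modifying enzymes, and 0 were called. PLOD2, a lysyl hydroxylase that prepares collagen for cross-links, measured 35.6, 26.3 and 29.2 CPM in controls and 31.1, 39.3 and 38.5 CPM with EGLN3. EGLN3 replicates 2 and 3 were its highest libraries, and EGLN3 replicate 1 lay below control replicate 1. PLOD2 had a log2 fold change of 0.26 (SE 0.17; edgeR unadjusted p = 0.175, adjusted p = 1). P4HA1 and P4HA2, catalytic subunits of collagen prolyl hydroxylase, were at 0.05 (SE 0.13) and -0.13 (SE 0.12). The cross-linking lysyl oxidases LOX and LOXL2 were low, with 147 and 68 counts over all libraries, and their log2 fold changes of 0.24 (SE 0.37) and 0.25 (SE 0.45) had wide errors.

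Of the genes for acid balance and for the fructose bisphosphate signal, PFKFB3 was the highest per length, at 8.62 FPKM. PFKFB3 and PFKFB4 are bifunctional enzymes that set the allosteric activator of phosphofructokinase. PFKFB3 measured 59.3, 52.9 and 48.6 CPM in controls and 42.4, 55.2 and 60.4 CPM with EGLN3. The EGLN3 libraries again held both its lowest and its highest value (log2 fold change -0.02, SE 0.17). PFKFB4 was at -0.21 (SE 0.16). CA12, the other surface carbonic anhydrase among the members, had a mean of 0.583 FPKM, from 418 counts over the 6 libraries. Its log2 fold change was -0.09 (SE 0.18).

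Transcription and chromatin regulators included the most abundant member and 1 whose groups separated. BHLHE40, a repressor also known as DEC1, measured 167 CPM, 153 CPM and 142 CPM in controls and 152 CPM, 156 CPM and 164 CPM with EGLN3. Its EGLN3 libraries fell inside the range of the controls, with a log2 fold change of 0.03 (SE 0.12) and an interval from 0.836-fold to 1.25-fold. MXI1, which competes with MYC for the partner MAX, measured 24.6, 24 and 25.6 CPM in controls and 25.7, 28.4 and 28.1 CPM with EGLN3. The lowest EGLN3 library of MXI1, at 25.75 CPM, stood just above the highest control, at 25.63. MXI1 differed by 0.15 on the log2 scale (SE 0.12), with an unadjusted p of 0.26 and an adjusted p of 1 by edgeR. SAP30, a subunit of the Sin3 deacetylase complex, measured 4.24, 5.74 and 6.14 CPM in controls and 4.94, 3.67 and 4.05 CPM with EGLN3. Control replicate 1 of SAP30 lay below EGLN3 replicate 1 (log2 fold change -0.35, SE 0.22; edgeR unadjusted p = 0.16, adjusted p = 1).

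CITED2, which limits HIF by competing for its coactivators, measured 27.5, 28.9 and 23.2 CPM in controls and 26.8, 24.8 and 25.7 CPM with EGLN3, all 3 inside the control range. YEATS2, a histone reader, measured 122 CPM, 104 CPM and 90.4 CPM in controls and 80.5 CPM, 109 CPM and 124 CPM with EGLN3. YEATS2 thus had both extremes in the EGLN3 group and a log2 fold change of -0.01 (SE 0.20). The nuclear receptor RORA measured 21.2, 12.8 and 9.71 CPM in controls and 9.94, 17 and 25.7 CPM with EGLN3. Its replicates differed up to 2.18-fold among controls and 2.59-fold among EGLN3 libraries, and the groups overlapped. The histone demethylase KDM3A was at 0.11 (SE 0.25), ZNF395 at 0.08 (SE 0.15) and the repressor BHLHE41 at -0.33 (SE 0.24).

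Stress and lipid genes showed the same lack of separation. DDIT4, an inhibitor of mTORC1 signalling also called REDD1, measured 19.3, 22.2 and 16.7 CPM in controls and 13.6, 18.9 and 16.8 CPM with EGLN3. Of its 3 EGLN3 libraries 2 lay inside the control range, and the log2 fold change was -0.24 (SE 0.18). ERO1A, which forms disulfide bonds in the endoplasmic reticulum, measured 135 CPM, 122 CPM and 132 CPM in controls and 129 CPM, 136 CPM and 138 CPM with EGLN3. The 2 highest ERO1A libraries carried EGLN3, just above control replicate 1 (log2 fold change 0.05, SE 0.12). NDRG1, a stress-response gene, was at 0.02 (SE 0.12), HILPDA, a lipid droplet protein, at -0.0013 (SE 0.25), and the lipoprotein receptor VLDLR at -0.16 (SE 0.18).

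The 2 other members without overlap were both lower with EGLN3. ANKRD37, a small ankyrin repeat protein, measured 1.68, 1.98 and 1.88 CPM in controls and 1.38, 1.12 and 1.06 CPM with EGLN3, from 29, 31 and 30 counts against 21, 19 and 17. The control mean was 1.85 ± 0.149 CPM and the EGLN3 mean 1.19 ± 0.171 CPM (SD, n = 3 each), and all 3 EGLN3 libraries lay below all 3 controls. ANKRD37 differed by -0.63 on the log2 scale (SE 0.25), with an interval from -1.23 to -0.04, an unadjusted p of 0.040 and an adjusted p of 1 by edgeR. Of the exons of ANKRD37, 35.2% overlap UFSP2 on the opposite strand. UFSP2 had 1457 counts against 147 and a log2 fold change of 0.02 (SE 0.13). No source used here says whether strand was used in counting, and reads of that overlap cannot be told apart. Large shares of exons also overlap for EFNA3 (44.7%, AL691442.1), ZNF395 (34.9%, FBXO16) and DDIT4 (41.2%, DDIT4-AS1). The overlap is on the same strand for EFNA3 and ZNF395 and on the opposite strand for DDIT4. The counts of these genes may be incomplete. KCTD11, an adaptor of a CUL3 ubiquitin ligase, measured 24.2, 25.1 and 21.2 CPM in controls and 20.9, 20.5 and 18 CPM with EGLN3. The highest EGLN3 library of KCTD11, at 20.87 CPM, lay just below the lowest control, at 21.24 (log2 fold change -0.25, SE 0.14; edgeR unadjusted p = 0.12, adjusted p = 1). TMEM45A, a membrane protein, measured 2.03, 2.49 and 2.19 CPM in controls and 2.11, 1.48 and 1.37 CPM with EGLN3, so EGLN3 replicate 1 lay among the controls (log2 fold change -0.44, SE 0.26; edgeR unadjusted p = 0.14, adjusted p = 1). WSB1, a substrate receptor of a ubiquitin ligase, was at 0.17 (SE 0.18).

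The 3 members without overlap, MXI1 upward and ANKRD37 and KCTD11 downward, are 8.33% of the 36, beside 6.26% of all tested genes. Upward the share was 2.78%, beside 2.65%, and downward 5.56%, beside 3.62%. These shares lie near the background, so they are not a result about the HIF targets.

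**Figure D3:**
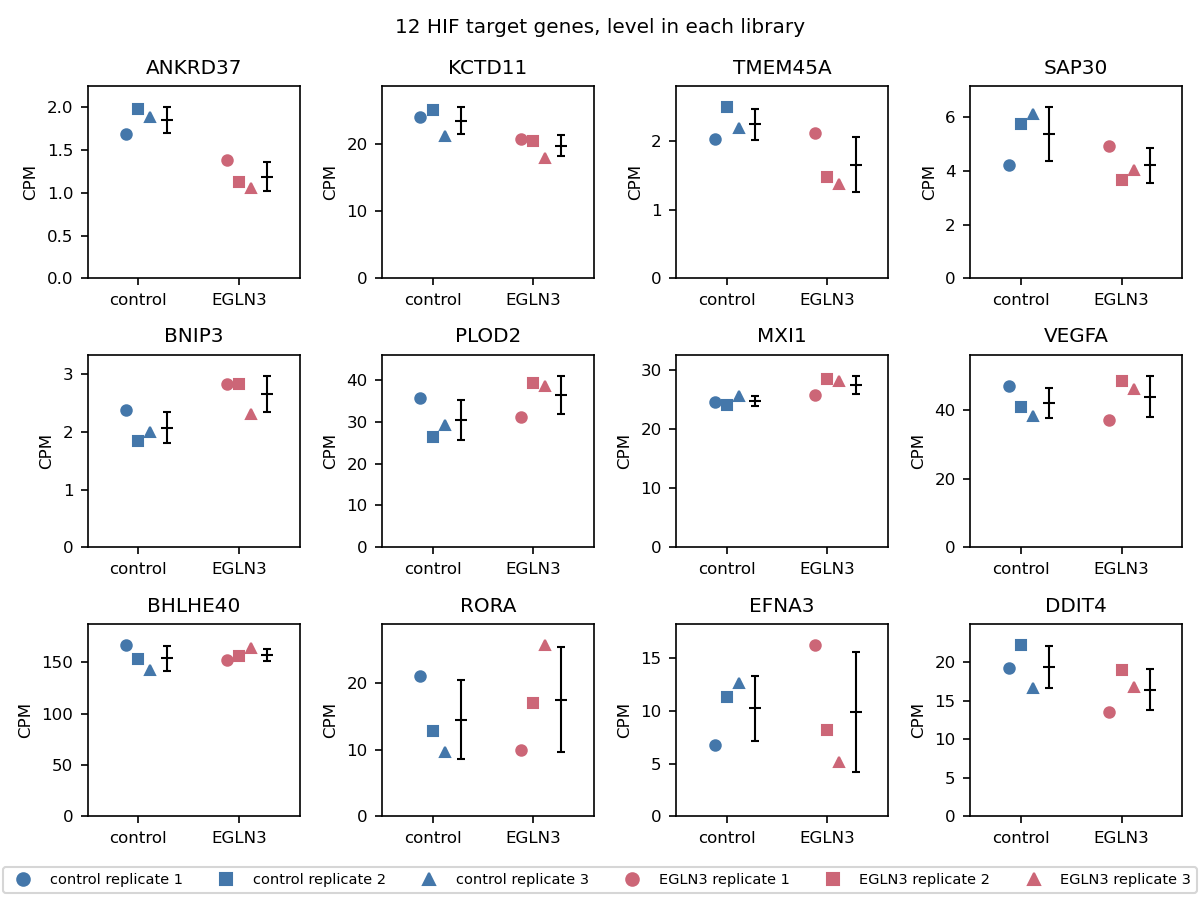
CPM (y axis, from 0) of 12 HIF targets in the 3 control (blue) and 3 EGLN3 (red) libraries, 1 shape per replicate number, with the mean and SD in black. The groups separate for ANKRD37, KCTD11 and MXI1 and overlap in the other panels.

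Members varied between libraries of the same group. The median ratio of the highest to the lowest library was 1.23 among controls and 1.30 among EGLN3 libraries. EGLN3 replicates 3 and 1 lay at opposite ends of the leading component. They also differ in their labelled days of plasmid and in the level of EGLN3 itself, at 1713 CPM in replicate 3 and 481 CPM in replicate 1, and these differences cannot be told apart from others between the libraries. RORA, with an annotated length of 17040 bp, was 1.33 higher on the log2 scale in replicate 3, and KDM3A, with 13423 bp, was 0.83 higher. EFNA3, with 1909 bp, was at -1.56, and EFNA1 and FAM162A were at -0.62 each. Across the 36 members, this contrast had a Spearman's rho of 0.642 against gene length, and of -0.390 against GC content. Over all tested genes rho was 0.447 for length and -0.382 for GC. These correlations describe genes measured in the same 2 libraries, which are not independent.

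**Figure D4:**
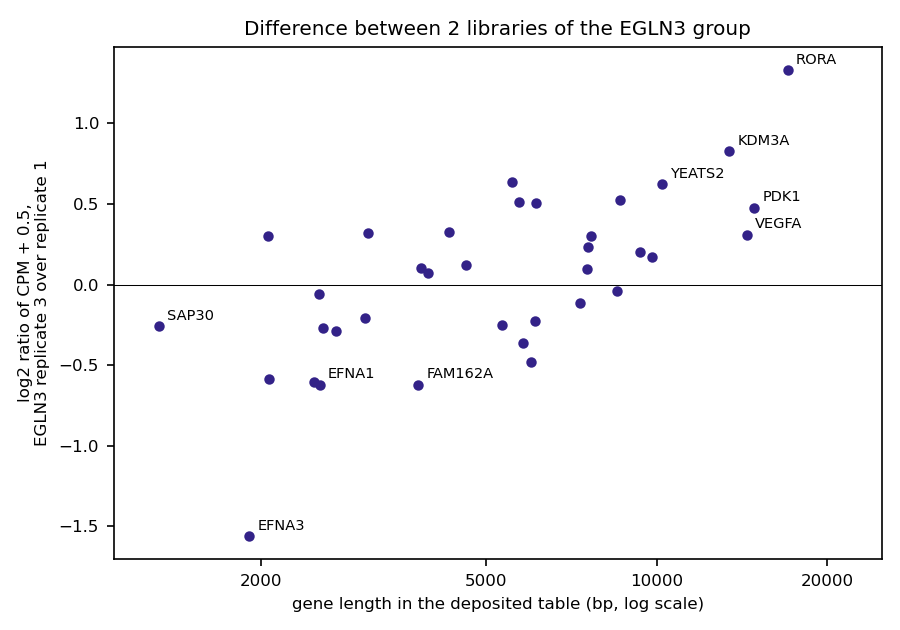
Log2 ratio of CPM + 0.5 between EGLN3 replicate 3 and EGLN3 replicate 1 (y axis) against gene length in bp (x axis, log scale), 1 point for each of the 36 tested HIF targets. Both libraries belong to the EGLN3 group but differ in labelled days of plasmid and in EGLN3 level. The long gene RORA stands highest and the short gene EFNA3 lowest.

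Fits with a surrogate variable, an axis of variation between libraries estimated from the counts, also called 0 of the HIF targets. With 1 such variable the median SE of the members was 0.10 on the log2 scale, against 0.18 without it. The SE was smaller for 32 members and larger for 4 (ANKRD37, BNIP3, BHLHE41 and LOXL2). That edgeR fit called 4.53% of all genes and 0 of 36 members, with 5 members (13.9%) at an unadjusted p under 0.05 beside 18.9% of all genes. With the trends on GC content and length removed as well, it called 0.922% of all genes and again 0 of 36 members, with 1 member (ANKRD37, 2.78%) at an unadjusted p under 0.05 beside 12.9% of all genes. The median log2 fold change of the members was then -0.0011, with 17 higher and 19 lower. ANKRD37 stood at -0.69 (SE 0.29; edgeR adjusted p = 0.30), VEGFA at 0.11 (SE 0.06), BHLHE40 at 0.06 (SE 0.05), ERO1A at -0.04 (SE 0.05) and KCTD11 at -0.12 (SE 0.09). These SEs may be too small, because the same 6 libraries served to estimate the surrogate variable and the trends, which were then treated as fixed.

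Other genes of the pathway, from lists written with earlier results known, gave 0 calls as well in the uncorrected edgeR fit. At an unadjusted p under 0.05 by edgeR there were 0 core, 0 further and 2 of 18 glycolytic genes, beside 1.11% of all genes. Of 15 core genes (HIF subunits, hydroxylases other than EGLN3, the VHL complex and coactivators) 14 were tested, 8 higher and 6 lower, with a median of 0.03. The lowest unadjusted p belonged to HIF1A, VHL and EGLN1, at log2 fold changes of 0.19 (SE 0.22), -0.15 (SE 0.19) and 0.09 (SE 0.15). Of 26 further hypoxia-inducible genes 20 were tested, 10 higher and 10 lower, with a median of 0.0018. HMOX1, which breaks down heme, was at 0.47 (SE 0.21), the glycogen enzyme PGM1 at -0.23 (SE 0.13) and the demethylase KDM4B at -0.19 (SE 0.14). HMOX1 was the 1 gene of that list called with the surrogate variable and trends, at 0.59 (SE 0.09; edgeR adjusted p = 0.00072). HMOX1 is also a target of NRF2. Glycolytic HIF targets, which the 37 genes leave out, had 18 of 18 with a negative log2 fold change and a median of -0.16. Over all tested genes 52.2% were higher and the median was 0.01. With the surrogate variable and trends the glycolytic median was -0.10, beside -0.0022 over all genes. The 18 genes come from the same libraries and are not independent. The glycolytic genes with the lowest p were PFKP at -0.33 (SE 0.13), ALDOA at -0.45 (SE 0.18) and SLC16A3, which exports lactate, at -0.32 (SE 0.16). Few reads were assigned to ALDOA, with 519 counts over all libraries and a mean of 1.35 FPKM, beside 594 FPKM for GAPDH. Whether ALDOA shares exons with other genes was not examined, so its true level is uncertain. With the surrogate variable and trends, PFKP was the 1 glycolytic gene called (edgeR adjusted p = 0.016), and TPI1 was positive, at 0.039. Whether glycolytic and other HIF targets differ in their response was not tested.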

How the data were processed

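The submitters' processing notes list DESeq2 1.20.0, featureCounts 1.5.0-p3, HISAT2 2.0.5 and build hg38 without their roles. For strand and annotation in counting, the sources used here give nothing. The authors deposited raw counts per gene and library, and FPKM, which from the values equal counts per kilobase divided by 1 factor per library. FPKM served for levels between genes and as an alternative.

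Counts were analysed in R 4.3.3 with edgeR 4.0.16: filterByExpr, TMM (factors 0.919 to 1.06), robust quasi-likelihood test, Benjamini-Hochberg adjustment over 15726 genes, calls at an adjusted p under 0.05. The SE is the log2 fold change divided by the square root of F. CPM use library totals times TMM factors. Replicate pairs of a group had a chi-square per degree of freedom of 8.98 to 118, so each library was 1 replicate. Alternatives used DESeq2 1.42.0, limma 3.58.1 and sva 3.50.0 (1 surrogate variable, with or without splines of 5 degrees of freedom on GC content and gene length). The procedures were also run on simulated counts. Those had less spread than these libraries (common dispersion 0.0589 in the main fit) and no shared axis between libraries. They therefore do not show what the fits can detect here.

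The genes, lists and alternatives were chosen with earlier results of these data known. Shown per library are the 8 members with the highest FPKM, the 6 with the lowest p and those without overlap at a mean of at least 1 CPM; VEGFA, RORA and EFNA3 were added after their values were seen. From other lists the 3 genes with the lowest p are named. Promoters come from RefSeq.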

Additional observations from a re-analysis of the deposited data

How the results depend on the processing

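The number of HIF targets called was 0 in all 16 alternatives. For all genes it was 0 with limma-voom, with the replicate block and with limma on log2(FPKM + 1), 713 with 1 surrogate variable and 145 with GC and length trends as well. Leaving out 1 library gave 0 to 1. The log2 fold change of EGLN3 missed the threshold with limma-voom (10.75), the replicate block (10.83) and log2(FPKM + 1) (7.12), and ranged from 10.73 to 11.41 without 1 library, passing only without EGLN3 replicate 1. Replicate numbers do not pair the libraries: deviations of same-numbered libraries correlated at -0.79, -0.18 and -0.67, no library correlated best with its own number, and the block moved the calls from 1 to 0.

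The members' median log2 fold change ranged from -0.039 (without EGLN3 replicate 3) to 0.074 (without EGLN3 replicate 1). Uncalled members turned sign as follows; the cause was not tested. HILPDA was at 0.0073 with RLE scaling, 0.0071 with DESeq2, 0.00099 with at least 1 CPM in 3 libraries and 0.021 with 1 surrogate variable. With GC and length trends, BNIP3L was at -0.055, PDK1 at -0.043, KDM3A at -0.00083, P4HA1 at -0.038, PFKFB3 at 0.025, ERO1A at -0.038, EFNA1 at 0.046 and EFNA3 at 0.030. Leaving out each library gave these ranges: BNIP3L -0.052 to 0.13, PFKFB3 -0.14 to 0.12, FAM162A -0.091 to 0.24, YEATS2 -0.15 to 0.16, EFNA1 -0.29 to 0.051, EFNA3 -0.59 to 0.25, CITED2 -0.13 to 0.036, VEGFA -0.017 to 0.18, NDRG1 -0.022 to 0.079, KDM3A -0.069 to 0.33, BHLHE40 -0.023 to 0.092, HILPDA -0.25 to 0.13, ZNF395 -0.00099 to 0.17, PDK1 -0.063 to 0.19, P4HA1 -0.036 to 0.14, LOX -0.16 to 0.45 and RORA -0.11 to 0.64. ANKRD37 kept its sign, from -0.74 to -0.56. LOXL2, LOX, ANKRD37, TMEM45A, BHLHE41 and BNIP3 had 68 to 230 counts over the 6 libraries, and the part of depth in their errors was not tested.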
